A study of Mus musculus with 12 samples.

Results

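Genomic imprinting was examined through 45 imprinted genes that lie outside the Dlk1-Dio3 domain, in 12 expression arrays of 4 mouse induced pluripotent stem (iPS) lines. A gene was represented by the probe set that the array annotation assigns to it alone, under its current or an older symbol, and by the brightest such probe set where it had several. Of the 45 genes, 37 were measured, each by a single probe set, out of 19938 genes with a probe set in the whole table. H19, Slc22a3, Kcnq1ot1, Zrsr1 and Peg13 were assigned no probe set there and are not analysed here, and Snrpn, Ube3a and Gnas share a probe set with other genes. The measured genes divide into 18 read from the paternal copy, 17 read from the maternal copy and 2, Blcap and Inpp5f, whose imprint depends on the transcript or tissue. Several are imprinted in placenta or brain alone, and no allele was resolved on these arrays, so every value below is the sum of both copies.

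All 4 lines were derived from embryonic fibroblasts of C57BL/6J mice with 3 factors and kept in medium for embryonic stem cells. According to the labels, both LiPS-45 and LiPS-57 had competence for tetraploid complementation, in which a fetus is formed wholly from the injected stem cells, and LiPS-47 and LiPS-50 lacked it. Each line was sampled as 3 cultures, labelled biological repeats, with 1 array each. Competence is a property of a line, so that question rests on 2 lines against 2 lines, while a p-value between lines rests on how far cultures of the same line differ, which may be partly technical.

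Imprinted genes are read only or mainly from either the maternal or the paternal copy, some of them in certain tissues or transcripts alone. For many, this is set by DNA methylation laid down in egg or sperm at imprinting control regions. Many lie in clusters in which a control region, often through a long noncoding RNA, governs several genes at once. Many act on fetal and placental growth, the paternally read Igf2 promoting and the maternally read Igf2r, Phlda2, Cdkn1c and Grb10 restraining it, and the marks can be lost or gained while pluripotent cells are derived or cultured.

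The deposited intensities had nearly the same distribution on all arrays, with medians of log2 values within 0.0981 of each other. Values below are log2(intensity + 1), and each spread is the standard deviation (SD) of 3 cultures. The 8 pluripotency markers, among them Pou5f1 and Nanog, averaged 10.69 to 10.77 in LiPS-45, 10.75 to 10.79 in LiPS-57, 10.67 to 10.71 in LiPS-47 and 10.67 to 10.70 in LiPS-50, so the labelled cell type carried its markers in every culture. Similar means do not show equal single markers. Calls against LiPS-50 numbered 4, 3 and 3 of these 8 for LiPS-45, LiPS-57 and LiPS-47. LiPS-50 was lower at 3, 2 and 1 of those called and higher at the rest. Pou5f1 averaged 11.74, 11.72 and 11.69 in those lines, against 11.56 in LiPS-50, and Dppa5a 12.60, 12.65 and 12.62, against 12.85 in LiPS-50. LiPS-50 stood apart in markers of fibroblasts and feeder cells. The mean of the 17 measured of 18 listed genes lay at 8.19 to 8.45 in LiPS-45, 8.21 to 8.34 in LiPS-57 and 7.88 to 8.30 in LiPS-47, against 8.79 to 9.0 in LiPS-50, and their summed intensity, in log2, at 13.32 to 13.58 in LiPS-45, 13.36 to 13.43 in LiPS-57 and 13.04 to 13.43 in LiPS-47, against 13.89 to 14.08 in LiPS-50. In RNA from whole cultures, fewer cells of a type and less RNA per cell cannot be told apart. Means of 7 trophectoderm markers lay between 6.97 and 7.35 over all arrays, and those of 7 primitive endoderm markers between 6.08 and 6.34, with single markers of both lists called on either side of LiPS-50. Of the trophectoderm markers 3, 2 and 4 were called for LiPS-45, LiPS-57 and LiPS-47 against LiPS-50. LiPS-50 was lower at 1, 0 and 2 of these and higher at the rest. Of the endoderm markers 4, 3 and 3 were called, with LiPS-50 lower at 1 in each comparison. Gata3 averaged 5.90, 5.76 and 5.71 in those lines, against 6.90 in LiPS-50, and Pdgfra 7.61, 7.50 and 7.36, against 8.61 in LiPS-50, while Foxa2 averaged 6.76, 6.35 and 6.53, against 5.48 in LiPS-50. Krt8 averaged 10.74, 10.40 and 11.12 in the same lines, against 10.35 in LiPS-50. Krt18 averaged 9.55, 9.29 and 10.02, against 9.42 in LiPS-50. Both Krt8 and Krt18 were lower in LiPS-57 than in LiPS-47, a pair in which 2 of the 7 trophectoderm markers were called. A fit with the mean of the fibroblast and feeder markers as a covariate is given below, and it cannot tell marker level and line apart. Of 4 germ cell markers, 1, 2 and 1 were called for LiPS-45, LiPS-57 and LiPS-47 against LiPS-50, all higher in LiPS-50. Of 4 neural markers, 0, 2 and 1 were called, all lower in LiPS-50. The part of the other marker lists in the results was not tested.

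Imprinted genes differed between LiPS-50 and each of the other lines and hardly among those others. In the moderated F-test of limma across the 4 lines, 15 of 37 members passed an adjusted p of 0.05, against 14.9% of all 28939 tested probe sets. Between LiPS-45 and LiPS-50, 15 members passed, 6 of them higher and 9 lower in LiPS-45, against 16.5% of all probe sets (8.3% higher and 8.18% lower). Between LiPS-57 and LiPS-50 13 were called, 5 higher and 8 lower in LiPS-57, against 15.6% of all probe sets (7.48% higher and 8.16% lower). When array medians were set equal, that split became 6 higher and 6 lower, and the split for LiPS-45 became 8 and 8. Quantile normalization gave 5 higher and 11 lower for LiPS-45. Between LiPS-47 and LiPS-50 16 were called, 5 higher and 11 lower in LiPS-47, against 15.8% of all probe sets (7.31% higher and 8.48% lower). These 3 comparisons use the same LiPS-50 arrays, so their results are not independent of one another. Where 3 differences follow without names, they are those of LiPS-45, LiPS-57 and LiPS-47, in that order, each minus LiPS-50.

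Members are brighter than most probe sets, with 31 of 37 above the 40th percentile of all probe set means at 5.21, and bright probe sets were called more often. Among probe sets above that level, members were called in 14 of 31 cases for LiPS-45 against LiPS-50, where 24.5% of all were. For LiPS-57 against LiPS-50 the figures were 12 of 31 and 23.4%, and for LiPS-47 against LiPS-50 15 of 31 and 23.5%. The median difference of the 37 members was -0.092, -0.14 and -0.090 in these comparisons, beside medians of -2.37e-04, 1.86e-04 and 0.014 over all probe sets. Among the other lines the counts were small. LiPS-45 and LiPS-57 differed at 1 member, Nnat, lower in LiPS-45, against 0.266% of all probe sets, with 0.0518% of all lower there. LiPS-45 and LiPS-47 differed at 0 members by limma's adjusted p (0.0622% of all probe sets), with 7 at an unadjusted p under 0.05 (8.93% of all), and LiPS-57 and LiPS-47 at 0 (0.159% of all), with 5 at an unadjusted p under 0.05 (6.89% of all).

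**Figure D1:**
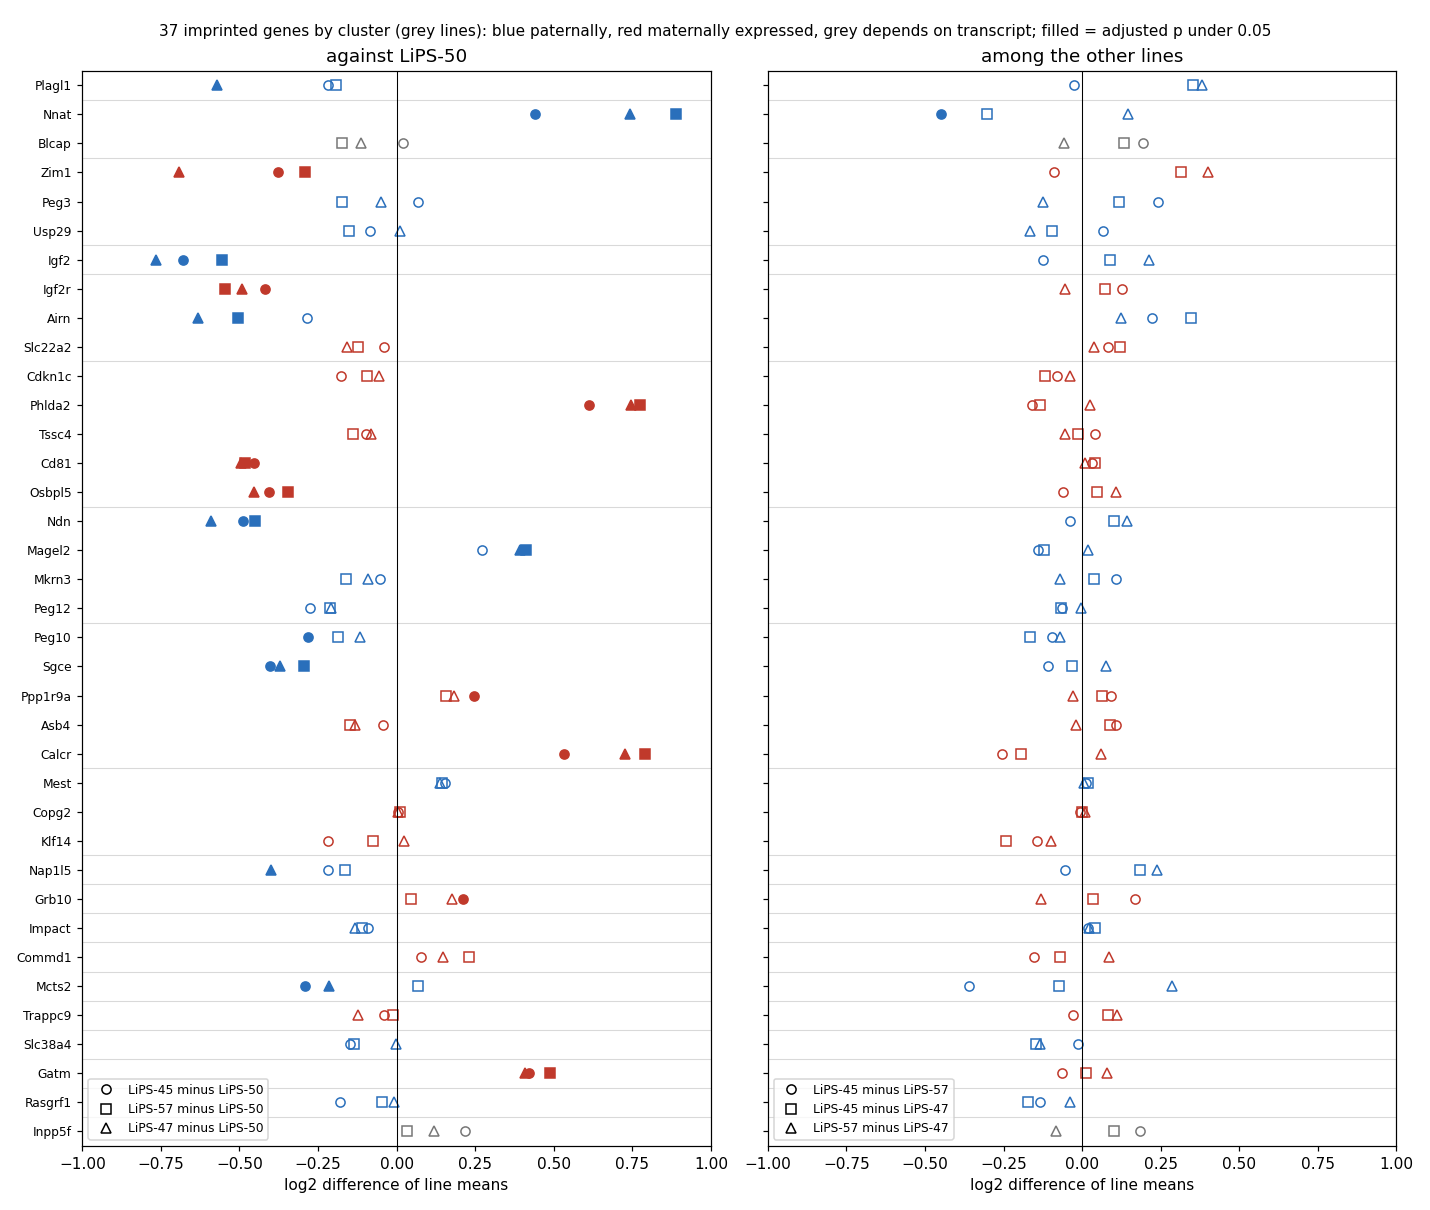
Log2 differences of line means on the x axis for the 37 measured genes, in rows grouped by imprinted cluster and coloured by parental copy, with the 3 pairs against LiPS-50 on the left and the 3 pairs among the other lines on the right. Filled symbols passed an adjusted p of 0.05: on the left they lie on both sides of 0 and in genes of either parental copy, and on the right Nnat alone is filled.

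Promoters are shown for 5 members whose differences carry the patterns described next: Nnat and Phlda2, higher in the other lines than in LiPS-50, Plagl1, lowest in LiPS-47, Mcts2, lowest in LiPS-45 and LiPS-47, and the start shared by Snurf and Snrpn, whose probe set divides the lines in pairs. Each is the 250 bases upstream of a RefSeq transcript start (GRCm38.p6), with every CpG, the dinucleotide that carries the methylation imprint, in capitals. Nnat lies at chr2:157559828-157560077 on the plus strand and holds 12 CpG, Phlda2 at chr7:143502525-143502774 on the minus strand with 21, Plagl1 at chr10:13090582-13090831 on the plus strand with 19, Mcts2 at chr2:152686898-152687147 on the plus strand with 20, and Snurf and Snrpn at chr7:60005200-60005449 on the minus strand with 3.
Nnat: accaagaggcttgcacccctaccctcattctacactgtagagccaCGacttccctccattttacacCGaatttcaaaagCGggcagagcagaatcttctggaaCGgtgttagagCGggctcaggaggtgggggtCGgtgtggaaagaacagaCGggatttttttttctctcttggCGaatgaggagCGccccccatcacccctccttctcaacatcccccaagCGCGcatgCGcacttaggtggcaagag
Phlda2: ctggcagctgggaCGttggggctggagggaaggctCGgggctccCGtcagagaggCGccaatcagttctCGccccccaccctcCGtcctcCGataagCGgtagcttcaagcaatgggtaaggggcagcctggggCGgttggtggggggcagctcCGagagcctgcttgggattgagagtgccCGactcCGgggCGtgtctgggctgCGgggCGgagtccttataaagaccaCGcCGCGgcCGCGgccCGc
Plagl1: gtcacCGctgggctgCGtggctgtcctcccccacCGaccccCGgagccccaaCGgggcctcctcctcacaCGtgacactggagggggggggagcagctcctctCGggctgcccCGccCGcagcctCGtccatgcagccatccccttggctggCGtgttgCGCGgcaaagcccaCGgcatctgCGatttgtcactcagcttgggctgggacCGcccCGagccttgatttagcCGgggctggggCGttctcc
Mcts2: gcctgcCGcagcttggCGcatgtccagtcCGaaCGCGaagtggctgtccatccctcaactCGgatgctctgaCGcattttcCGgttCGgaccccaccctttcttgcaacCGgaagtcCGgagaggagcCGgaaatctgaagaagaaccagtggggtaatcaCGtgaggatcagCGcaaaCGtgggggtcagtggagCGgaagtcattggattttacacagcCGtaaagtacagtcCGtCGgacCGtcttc
Snurf and Snrpn: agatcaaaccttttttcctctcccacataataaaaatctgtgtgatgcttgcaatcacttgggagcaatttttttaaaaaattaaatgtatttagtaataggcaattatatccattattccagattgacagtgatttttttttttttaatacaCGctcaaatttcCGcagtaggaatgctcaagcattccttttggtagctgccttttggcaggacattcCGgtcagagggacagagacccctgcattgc
ZFP57, the zinc finger protein that keeps imprints methylated in the early embryo, binds the motif TGCCGC when it is methylated. Read on either strand (GCGGCA in reverse), the motif was found in the windows of Plagl1 and Mcts2 and not in the others printed. It was found in 22.2% of 45 windows of 31 listed genes and in 8.75% of all 32536 windows of that length, and the median window held 12 CpG among listed genes and 6 among all. The motif itself holds a CpG, and these shares were not compared at equal CpG content. Overlapping windows of a gene were counted separately, as for Mest, whose overlapping windows hold the motif. These arrays measured neither methylation nor binding.

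Nnat, which encodes a small membrane protein of the endoplasmic reticulum and is read from the paternal copy, had the widest range of line means of all members. It was measured at 7.16, 7.39 and 7.22 in LiPS-45, 7.66, 7.71 and 7.76 in LiPS-57, 7.56, 7.62 and 7.50 in LiPS-47, against 6.90, 6.72 and 6.84 in LiPS-50. LiPS-57 was highest, LiPS-47 followed with cultures that did not overlap it, LiPS-45 lay in between and LiPS-50 lowest, with no overlap between any lines. The difference was 0.44 for LiPS-45 minus LiPS-50 (adjusted p = 0.00167), 0.89 for LiPS-57 minus LiPS-50 (adjusted p = 1.07e-05) and 0.74 for LiPS-47 minus LiPS-50 (adjusted p = 3.92e-05), or 1.36-, 1.85- and 1.67-fold, and it was called in all 22 alternatives of each of these comparisons. LiPS-45 was also below LiPS-57, by a log2 difference of -0.45 (SE 0.0736, adjusted p = 0.0269), while LiPS-45 minus LiPS-47 gave -0.30 (adjusted p = 0.222). Leaving out LiPS-45 culture 1 or 3, any LiPS-57 culture or LiPS-50 culture 3 ended the call against LiPS-57, at adjusted p between 0.0516 and 0.156, as did fitting those lines alone (0.141). Blcap, in whose intron Nnat lies, had line means between 7.92 and 8.11 and passed no pair.

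**Figure D2:**
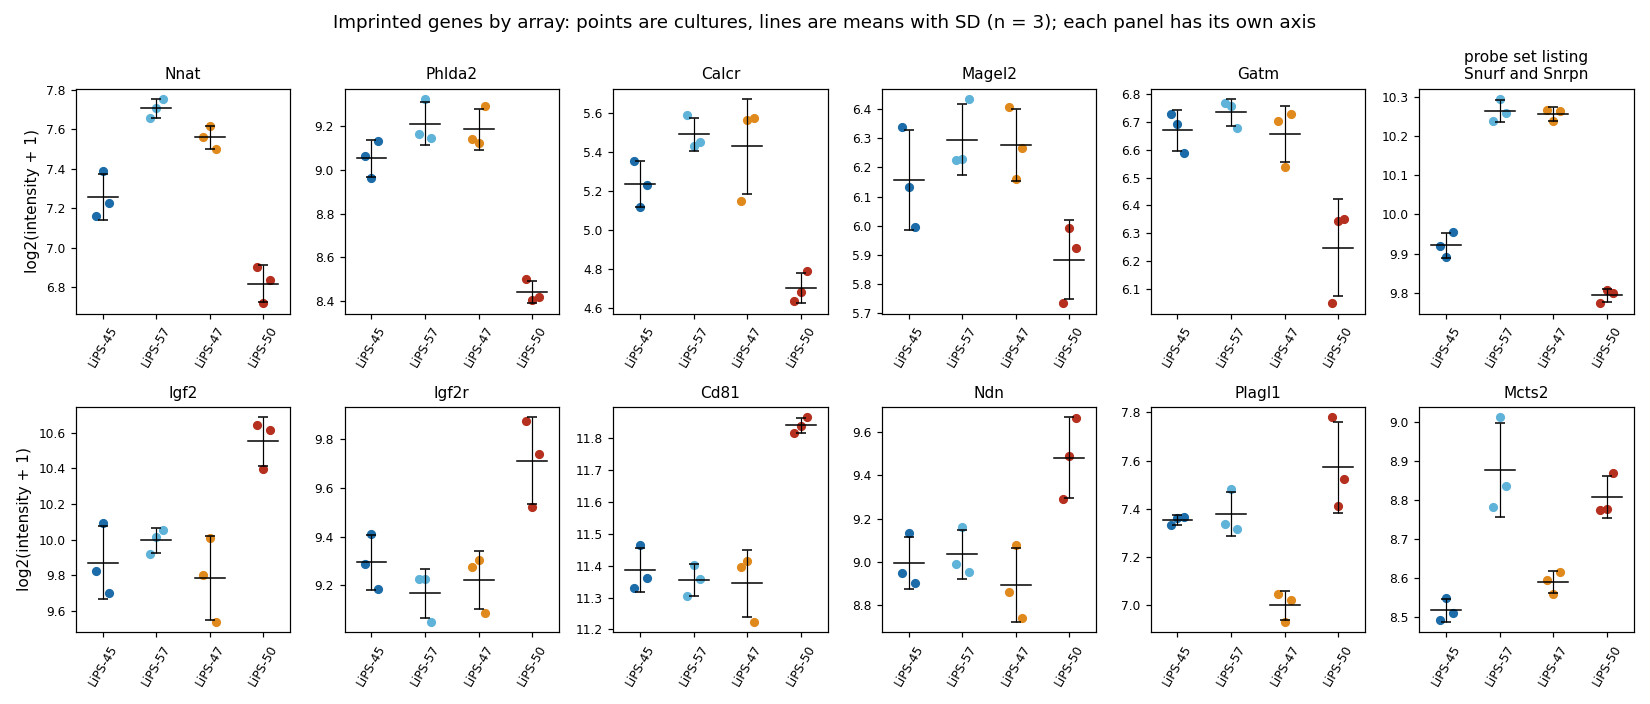
Values of 11 imprinted genes and of the probe set that lists Snurf and Snrpn, as log2(intensity + 1) on the y axis of each panel, with 1 point per culture and bars for the mean and SD of 3 cultures of each line. LiPS-50 lies lowest for Nnat, Phlda2, Calcr, Magel2 and Gatm and highest for Igf2, Igf2r, Cd81 and Ndn, LiPS-47 lies lowest for Plagl1, and the Snurf and Snrpn panel shows LiPS-57 and LiPS-47 above LiPS-45 and LiPS-50.

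The cluster on distal chromosome 7 under the noncoding RNA Kcnq1ot1 held 5 measured genes, and those called lay on opposite sides of LiPS-50. Phlda2 and Cdkn1c are read from the maternal copy in most tissues, whereas Tssc4, Cd81 and Osbpl5 are known to be so in placenta only. Phlda2, a pleckstrin homology domain protein that restrains placental growth, was measured at 9.06, 8.96 and 9.13 in LiPS-45, 9.17, 9.33 and 9.15 in LiPS-57, 9.14, 9.12 and 9.29 in LiPS-47, against 8.50, 8.40 and 8.42 in LiPS-50. The LiPS-50 cultures lay below all others. The difference was 0.61 for LiPS-45 minus LiPS-50 (adjusted p = 1.63e-04), 0.77 for LiPS-57 minus LiPS-50 (adjusted p = 3.35e-05) and 0.75 for LiPS-47 minus LiPS-50 (adjusted p = 3.92e-05). Cd81, a tetraspanin of the cell surface, was among the brightest members and went the other way. It was measured at 11.33, 11.46 and 11.36 in LiPS-45, 11.31, 11.40 and 11.36 in LiPS-57, 11.39, 11.41 and 11.22 in LiPS-47, against 11.82, 11.84 and 11.86 in LiPS-50, again with no overlap. Its differences were -0.45, -0.48 and -0.49 (adjusted p = 6.56e-04, 4.64e-04 and 3.48e-04). Osbpl5, a lipid transfer protein, had means of 7.04 ± 0.0922 in LiPS-45 cultures, 7.10 ± 0.0322 in LiPS-57 cultures, 6.99 ± 0.154 in LiPS-47 cultures and 7.45 ± 0.0600 in LiPS-50 cultures (SD, n = 3 each), and its differences of -0.41, -0.35 and -0.45 were called as well (adjusted p = 0.00435, 0.0114 and 0.00200). Cdkn1c, the cell cycle inhibitor p57, and Tssc4, a factor of spliceosome assembly, passed no pair, with Cdkn1c at 8.02 ± 0.0293 in LiPS-45 cultures, 8.10 ± 0.0211 in LiPS-57 cultures, 8.14 ± 0.0572 in LiPS-47 cultures and 8.20 ± 0.0714 in LiPS-50 cultures (SD, n = 3 each). In LiPS-57, Phlda2 was 1.71-fold higher and Cd81 1.4-fold lower than in LiPS-50.

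Igf2, the fetal growth factor read from the paternal copy, was measured at 9.82, 10.09 and 9.70 in LiPS-45, 9.92, 10.01 and 10.06 in LiPS-57, 9.80, 10.01 and 9.54 in LiPS-47, against 10.64, 10.39 and 10.62 in LiPS-50. Every LiPS-50 culture lay above all cultures of the other lines. The difference was -0.68 for LiPS-45 minus LiPS-50 (adjusted p = 0.00294), -0.56 for LiPS-57 minus LiPS-50 (adjusted p = 0.00962) and -0.77 for LiPS-47 minus LiPS-50 (adjusted p = 0.00121), or up to 1.70-fold lower in LiPS-47. H19, its maternally read noncoding neighbour, was not measured by a probe set of its own. A probe set that lists Mir675, a microRNA hosted by H19, together with Supt6, and so names neither, was measured at 9.97, 10.24 and 9.99 in LiPS-45, 10.05, 10.10 and 10.18 in LiPS-57, 10.21, 10.17 and 9.76 in LiPS-47, against 11.03, 10.89 and 11.16 in LiPS-50. Its differences were -0.96, -0.92 and -0.98 (adjusted p = 1.88e-04, 3.13e-04 and 1.68e-04), and it was singled out after its values were seen.

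On chromosome 17, Airn starts within Igf2r and runs against it, and the genes are read from opposite copies, Igf2r, the receptor that delivers IGF2 to lysosomes, from the maternal copy and Airn, the noncoding RNA that silences it, from the paternal copy. Both were lower in the other lines than in LiPS-50. Igf2r was measured at 9.29, 9.41 and 9.19 in LiPS-45, 9.23, 9.22 and 9.05 in LiPS-57, 9.28, 9.30 and 9.09 in LiPS-47, against 9.88, 9.52 and 9.74 in LiPS-50, with no overlap. The difference was -0.42 for LiPS-45 minus LiPS-50 (adjusted p = 0.0129), -0.55 for LiPS-57 minus LiPS-50 (adjusted p = 0.00292) and -0.49 for LiPS-47 minus LiPS-50 (adjusted p = 0.00476). Without LiPS-45 culture 3 or LiPS-50 culture 1 the call between LiPS-45 and LiPS-50 was lost (adjusted p = 0.0598 and 0.0545). Airn was dimmer and more variable, at 5.81, 5.91 and 5.39 in LiPS-45, 5.60, 5.57 and 5.27 in LiPS-57, 5.46, 5.31 and 5.30 in LiPS-47, against 6.30, 5.83 and 5.83 in LiPS-50. Its highest LiPS-45 culture lay above the lowest LiPS-50 cultures. It was called lower in LiPS-47 (-0.63, SE 0.154, adjusted p = 0.0143) and in LiPS-57 (-0.51, SE 0.154, adjusted p = 0.0433), and its difference for LiPS-45 was -0.28 (adjusted p = 0.257). Without LiPS-50 culture 1 the call for LiPS-47 was lost (adjusted p = 0.0587). That for LiPS-57 was lost without LiPS-45 culture 1, any culture of LiPS-47 or LiPS-57, or LiPS-50 culture 1, at adjusted p between 0.0521 and 0.167. It was also lost with median centring (0.0623), with quantile normalization (0.0763) and with the 2 lines fitted alone (0.0579). Whether the probe sets keep the opposite strands apart is not given in the sources used here. Slc22a2, an organic cation transporter imprinted in placenta, was dim, with line means between 4.56 and 4.72, and passed no pair.

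In the cluster of the Prader-Willi and Angelman region on chromosome 7, the paternally read genes did not move together. Ndn, a growth-restraining protein of the MAGE family, was measured at 8.95, 9.13 and 8.90 in LiPS-45, 8.99, 9.16 and 8.95 in LiPS-57, 8.86, 9.08 and 8.74 in LiPS-47, against 9.29, 9.49 and 9.67 in LiPS-50. The LiPS-50 cultures lay above all others. The difference was -0.49 for LiPS-45 minus LiPS-50 (adjusted p = 0.0102), -0.45 for LiPS-57 minus LiPS-50 (adjusted p = 0.0163) and -0.59 for LiPS-47 minus LiPS-50 (adjusted p = 0.00312), the second of which was lost without LiPS-57 culture 1 or 3 or LiPS-50 culture 3 (adjusted p = 0.0585, 0.0624 and 0.0689). Its neighbour and relative Magel2 went the other way, at 6.34, 6.13 and 6.00 in LiPS-45, 6.22, 6.23 and 6.43 in LiPS-57, 6.41, 6.16 and 6.27 in LiPS-47, against 5.73, 5.99 and 5.92 in LiPS-50. The lowest LiPS-45 culture lay just above the highest of LiPS-50, and no line overlapped LiPS-50. Magel2 was called higher in LiPS-57 (0.41, SE 0.104, adjusted p = 0.0181) and LiPS-47 (0.39, SE 0.104, adjusted p = 0.0219) and not in LiPS-45 (0.27, adjusted p = 0.102). Without LiPS-57 culture 3 or LiPS-50 culture 1 the call for LiPS-57 was lost (adjusted p = 0.0760 and 0.0776), and without LiPS-47 culture 1 or 3 or LiPS-50 culture 1 that for LiPS-47 was (0.0869, 0.0557 and 0.0925). Mkrn3, a ubiquitin ligase gene, and Peg12, a relative of the GSK3-binding FRAT genes, passed no pair, with line means of 5.05 to 5.21 and 6.70 to 6.98.

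The probe set that lists Snurf and Snrpn, which share a transcript that encodes a splicing protein, placed LiPS-57 and LiPS-47 above LiPS-45 and LiPS-50. It was measured at 9.92, 9.89 and 9.95 in LiPS-45, 10.24, 10.29 and 10.26 in LiPS-57, 10.27, 10.24 and 10.26 in LiPS-47, against 9.77, 9.81 and 9.80 in LiPS-50. LiPS-57 and LiPS-47 overlapped each other and no other line, LiPS-45 lay next and LiPS-50 lowest. LiPS-45 minus LiPS-57 gave -0.34 (adjusted p = 0.0129), LiPS-45 minus LiPS-47 -0.33 (adjusted p = 0.0421), LiPS-57 minus LiPS-50 0.47 (adjusted p = 8.97e-05) and LiPS-47 minus LiPS-50 0.46 (adjusted p = 8.82e-05), while LiPS-45 minus LiPS-50 gave 0.13 (adjusted p = 0.115). The call against LiPS-47 was lost without any single one of the 12 arrays, at adjusted p between 0.0695 and 0.170, and that against LiPS-57 without LiPS-45 culture 1 or 2 or any LiPS-57 culture, at 0.0526 to 0.0878. Ube3a, a ubiquitin ligase gene imprinted in neurons, and Gnas, which encodes a G protein subunit, likewise share probe sets with other genes, whose line means lay between 8.67 and 8.84 and between 8.13 and 8.24 and passed no pair.

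The Peg10 and Sgce cluster of chromosome 6 held 5 measured genes. Calcr, the calcitonin receptor gene, is read from the maternal copy in brain and was dim here. It was measured at 5.36, 5.12 and 5.23 in LiPS-45, 5.59, 5.43 and 5.45 in LiPS-57, 5.15, 5.56 and 5.58 in LiPS-47, against 4.63, 4.68 and 4.79 in LiPS-50. All LiPS-50 cultures lay below the others, and the difference was 0.53 for LiPS-45 minus LiPS-50 (adjusted p = 0.00560), 0.79 for LiPS-57 minus LiPS-50 (adjusted p = 5.07e-04) and 0.73 for LiPS-47 minus LiPS-50 (adjusted p = 7.40e-04). At this level near the 40th percentile of all probe sets, log2(intensity + 1) understates a fold. Sgce, which encodes a sarcoglycan of the cell membrane and is read from the paternal copy, was measured at 7.07, 7.13 and 7.19 in LiPS-45, 7.25, 7.26 and 7.21 in LiPS-57, 7.16, 7.19 and 7.14 in LiPS-47, against 7.50, 7.44 and 7.66 in LiPS-50, with no overlap between LiPS-50 and the rest. Its differences were -0.40, -0.30 and -0.37 (adjusted p = 0.00126, 0.00844 and 0.00187). Peg10, a retrotransposon-derived gene needed for the placenta and a near neighbour of Sgce, was bright, at 10.40 ± 0.0963 in LiPS-45 cultures, 10.49 ± 0.117 in LiPS-57 cultures, 10.56 ± 0.0343 in LiPS-47 cultures and 10.68 ± 0.127 in LiPS-50 cultures (SD, n = 3 each). It was called in LiPS-45 against LiPS-50 alone (-0.28, SE 0.0822, adjusted p = 0.0345), and without LiPS-45 culture 2 or 3 or LiPS-50 culture 1 or 3 it was not (adjusted p between 0.0588 and 0.131). Ppp1r9a, which encodes neurabin, was likewise called in that pair alone (0.25, SE 0.0717, adjusted p = 0.0338) and not without LiPS-45 culture 1 or 2 or LiPS-50 culture 2 or 3 (adjusted p between 0.0797 and 0.128). Asb4 was dim, with line means between 4.18 and 4.33, and passed no pair.

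Of the Peg3 cluster on chromosome 7, only the maternally read Zim1 was called in any pair. Zim1, a zinc finger gene, was measured at 5.10, 5.36 and 5.14 in LiPS-45, 5.32, 5.31 and 5.22 in LiPS-57, 4.93, 4.84 and 4.88 in LiPS-47, against 5.64, 5.58 and 5.50 in LiPS-50. LiPS-47 was lowest and LiPS-50 highest, and LiPS-45 and LiPS-57 overlapped in between. The difference was -0.38 for LiPS-45 minus LiPS-50 (adjusted p = 0.00430), -0.29 for LiPS-57 minus LiPS-50 (adjusted p = 0.0194) and -0.69 for LiPS-47 minus LiPS-50 (adjusted p = 7.27e-05), and the second was lost without LiPS-57 culture 3 or LiPS-50 culture 1 or 2 (adjusted p = 0.0745, 0.0751 and 0.0514). The same LiPS-50 arrays enter all 3. LiPS-57 minus LiPS-47 gave 0.40 with the lowest adjusted p of any member in that pair (0.0828). Peg3, the zinc finger gene of the paternal copy, was bright, at 10.14 ± 0.0523 in LiPS-45 cultures, 9.89 ± 0.0812 in LiPS-57 cultures, 10.02 ± 0.0723 in LiPS-47 cultures and 10.07 ± 0.123 in LiPS-50 cultures (SD, n = 3 each), and its largest difference, 0.24 for LiPS-45 minus LiPS-57, did not pass (adjusted p = 0.401). Usp29, a ubiquitin protease gene, was dim at line means of 4.52 to 4.68.

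Among genes that lie alone or in small clusters, Plagl1, a zinc finger transcription factor read from the paternal copy, was lowest in LiPS-47, with a call against LiPS-50 alone. It was measured at 7.33, 7.36 and 7.37 in LiPS-45, 7.34, 7.48 and 7.32 in LiPS-57, 7.04, 6.93 and 7.02 in LiPS-47, against 7.78, 7.41 and 7.53 in LiPS-50. All LiPS-47 cultures lay below all others, and LiPS-50 overlapped LiPS-57. LiPS-47 minus LiPS-50 gave -0.57 (SE 0.0874, adjusted p = 8.14e-04), whereas LiPS-45 minus LiPS-47 gave 0.35 (adjusted p = 0.229) and LiPS-57 minus LiPS-47 0.38 (adjusted p = 0.245). Mcts2, a paternally read retrogene copy of Mcts1, followed another order, at 8.49, 8.55 and 8.51 in LiPS-45, 8.78, 9.01 and 8.84 in LiPS-57, 8.60, 8.56 and 8.62 in LiPS-47, against 8.77, 8.78 and 8.87 in LiPS-50. All cultures of LiPS-45 and LiPS-47 lay below those of LiPS-57 and LiPS-50, which overlapped each other, though not every such difference was called. Its differences were -0.29 for LiPS-45 minus LiPS-50 (adjusted p = 0.0105), 0.07 for LiPS-57 minus LiPS-50 (adjusted p = 0.590), -0.22 for LiPS-47 minus LiPS-50 (adjusted p = 0.0454), -0.36 for LiPS-45 minus LiPS-57 (adjusted p = 0.0586) and 0.29 for LiPS-57 minus LiPS-47 (not called). The call for LiPS-47 was lost without any single culture of LiPS-45, LiPS-47 or LiPS-50 or without LiPS-57 culture 3, at adjusted p between 0.0589 and 0.151, and whether its probes also read Mcts1 was not tested.

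Gatm, the enzyme that makes the creatine precursor, is imprinted in placenta and was measured at 6.73, 6.69 and 6.59 in LiPS-45, 6.77, 6.76 and 6.68 in LiPS-57, 6.70, 6.54 and 6.73 in LiPS-47, against 6.05, 6.34 and 6.35 in LiPS-50. The LiPS-50 cultures lay below all others, and the differences were 0.42, 0.49 and 0.41 (adjusted p = 0.00600, 0.00268 and 0.00674). Grb10, the maternally read adaptor that damps insulin and IGF receptor signals, had means of 10.22 ± 0.0619 in LiPS-45 cultures, 10.05 ± 0.0427 in LiPS-57 cultures, 10.19 ± 0.0543 in LiPS-47 cultures and 10.01 ± 0.0966 in LiPS-50 cultures (SD, n = 3 each). It was called higher in LiPS-45 than in LiPS-50 (0.21, SE 0.0656, adjusted p = 0.0449), a call lost without any single culture of LiPS-45 or LiPS-57, LiPS-47 culture 2 or 3, or LiPS-50 culture 1 or 2, at adjusted p between 0.0521 and 0.166. Nap1l5, a paternally read retrogene of the nucleosome assembly family, was called lower in LiPS-47 than in LiPS-50 (-0.40, SE 0.110, adjusted p = 0.0271) and not without LiPS-47 culture 2 or LiPS-50 culture 2 or 3 (adjusted p = 0.101, 0.103 and 0.0510).

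The remaining members passed no pair. In the Mest cluster of chromosome 6, the paternally read Mest, of the hydrolase fold family, was bright, at 10.35 ± 0.0486 in LiPS-45 cultures, 10.33 ± 0.0300 in LiPS-57 cultures, 10.33 ± 0.0314 in LiPS-47 cultures and 10.19 ± 0.0305 in LiPS-50 cultures (SD, n = 3 each), and Copg2, a coatomer subunit gene that overlaps its end, had line means that differed by at most 0.0116. Klf14, a transcription factor gene, ranged between 7.22 and 7.47. Impact, an inhibitor of the stress kinase GCN2, ranged between 10.70 and 10.83 and Slc38a4, an amino acid transporter, between 10.15 and 10.30. Commd1, which acts in copper handling, ranged between 6.67 and 6.90, Trappc9, of a vesicle tethering complex, between 6.83 and 6.95 and Inpp5f, a phosphoinositide phosphatase, between 6.61 and 6.83. Rasgrf1, a Ras activator, was the dimmest at 4.08 to 4.26. A p that misses the threshold does not show equal levels, since changes of 1.16-fold upwards were among those called.

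Members of either parental copy were called in both directions, although 10 of the 17 maternally read members are imprinted in placenta or brain only. Of 18 paternally read members, 1 was higher and 5 lower in LiPS-45 than in LiPS-50, 2 higher and 4 lower in LiPS-57, and 2 higher and 7 lower in LiPS-47. Of 17 maternally read members, 5 were higher and 4 lower in LiPS-45 than in LiPS-50, 3 higher and 4 lower in LiPS-57, and 3 higher and 4 lower in LiPS-47. Over all probe sets, 8.3% were higher and 8.18% lower in LiPS-45 than in LiPS-50, 7.48% and 8.16% in LiPS-57, and 7.31% and 8.48% in LiPS-47. The median differences were -0.20, -0.16 and -0.12 for paternally read and -0.040, -0.074 and -0.056 for maternally read members. Whether the copies differ in this was not tested.

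The study asked how lines with and without tetraploid competence differ, and no imprinted gene passed the test between them. With the line as a random block, limma called 0 of 37 members and 0% of all probe sets, while 4 members and 7.69% of all probe sets had an unadjusted p under 0.05. First in rank was Slc38a4, with a log2 difference of -0.14 for LiPS-45 and LiPS-57 minus LiPS-47 and LiPS-50 (SE 0.0493, adjusted p = 0.648). Its cultures were at 10.13, 10.20 and 10.12 in LiPS-45 and 10.18, 10.12 and 10.19 in LiPS-57, against 10.30, 10.26 and 10.33 in LiPS-47 and 10.29, 10.32 and 10.29 in LiPS-50, so the classes did not overlap at this gene. Slc38a4 was picked as the smallest p of 37 in this same test, and the share of all probe sets without overlap was not determined. The next were Gatm at 0.25 (SE 0.109, adjusted p = 0.648), Peg10 at -0.18 (SE 0.0772, adjusted p = 0.648), Klf14 at -0.16 (SE 0.0706, adjusted p = 0.648) and Phlda2 at 0.32 (SE 0.157, adjusted p = 0.656). With cultures, not lines, as the source of error, 5 members were called, Phlda2, Nnat, Gatm and Calcr higher and Cd81 lower in the competent lines, and 6.18% of all probe sets. Each of those 5 is a gene at which LiPS-50 stood apart.

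The markers of fibroblasts and feeder cells were also higher in LiPS-50. Of 17 measured markers, 17 were called lower for LiPS-45 minus LiPS-50, 16 for LiPS-57 minus LiPS-50 and 17 for LiPS-47 minus LiPS-50. Within lines, the culture with the lowest marker mean was also the lowest for Igf2 in 4 of 4 lines, and the order of the 3 cultures was the same in 3. Igf2r and Osbpl5 had the same lowest culture and the same order in 3 of 4 lines. Of the other members called higher in LiPS-50 than in another line, Airn, Cd81, Ndn, Sgce and Peg10 had the same lowest culture in 2 of 4 lines, Plagl1 and Mcts2 in 1, and Zim1 and Nap1l5 in 0. Of those called lower in LiPS-50, Nnat had it in 3 of 4 lines, Magel2 and Grb10 in 2, Phlda2, Gatm and Ppp1r9a in 1, and Calcr in 0. Among members called in no pair, Tssc4 had it in 3 of 4 lines, and Mest and Impact in 0. With 3 cultures in a line some matches arise by chance, and whether these counts exceed that was not tested.

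**Figure D3:**
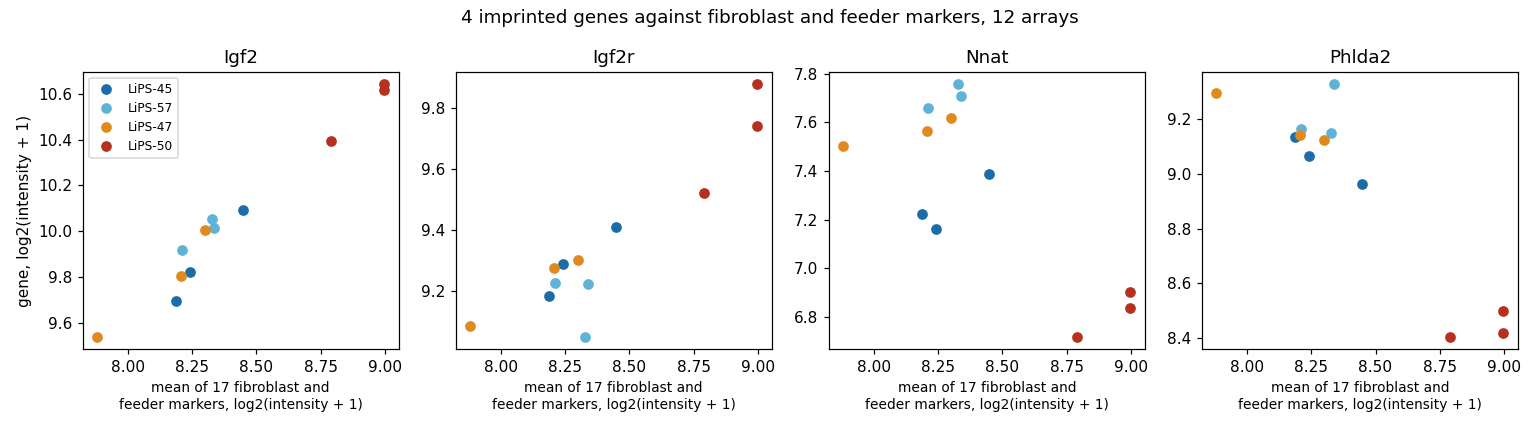
Level of Igf2, Igf2r, Nnat and Phlda2 on the y axes against the mean of 17 fibroblast and feeder markers on the x axis, both in log2(intensity + 1), with 1 point per array coloured by line. The culture with the lowest marker mean is also the lowest for Igf2 in every line and for Igf2r and Nnat in 3 of 4, and Nnat and Phlda2 lie lowest in LiPS-50, whose marker means of 8.79 to 9.0 do not overlap those of the other lines.

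With the marker mean as a covariate in the fit of the 4 lines, the differences of Igf2 became 0.047 for LiPS-45 minus LiPS-50, 0.17 for LiPS-57 minus LiPS-50 and 0.15 for LiPS-47 minus LiPS-50, of the opposite sign and not called (adjusted p = 0.935, 0.676 and 0.833). For Phlda2 they were 0.43, 0.59 and 0.52, of the same sign and not called (adjusted p = 0.268, 0.132 and 0.346). Nnat was the only member called in any pair, with differences of 0.73, 1.18 and 1.11 from LiPS-50 (adjusted p = 0.0237, 0.00143 and 0.0128) and of -0.45 for LiPS-45 minus LiPS-57 (adjusted p = 0.00826). Over all probe sets, calls against LiPS-50 fell to 0.898% for LiPS-45, 0.629% for LiPS-57 and 0.318% for LiPS-47 in this fit. Since the marker means of LiPS-50 do not overlap those of the other lines, the standard errors are larger, and the marker level and the line cannot be told apart for any member, Nnat included.

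**Figure D4:**
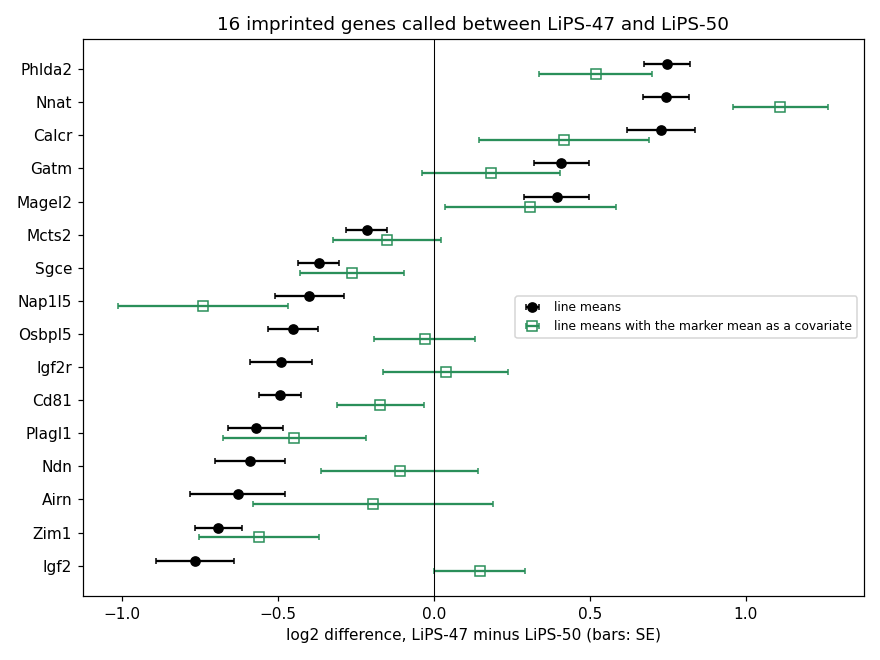
Log2 differences of LiPS-47 minus LiPS-50, with SE as bars, for the 16 members called in that pair, from the fit of line means (black circles) and from the fit with the fibroblast and feeder marker mean as a covariate (green squares). With the covariate Nnat lies farther from 0, Igf2 and Igf2r lie on the other side of it, and the bars are wider for every gene.

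Genes of the machinery of imprint maintenance and DNA methylation, with the Tet genes and some chromatin factors among them, were compared in the same way. Of 20 measured, 7 were higher and 0 lower in LiPS-45 than in LiPS-50, 6 higher and 2 lower in LiPS-57, and 4 higher and 2 lower in LiPS-47, and 0 were called among the other lines. These are 35%, 40% and 30% of the list, where 16.5%, 15.6% and 15.8% of all probe sets were called, and 24.5%, 23.4% and 23.5% of those above the 40th percentile, as all 20 are. Their median differences were 0.12, 0.093 and 0.11. Dnmt3b, a de novo DNA methyltransferase, averaged 10.95 in LiPS-45 cultures, 10.87 in LiPS-57 cultures and 10.92 in LiPS-47 cultures, against 10.26 in LiPS-50, with differences of 0.70, 0.61 and 0.67. Dnmt3a followed it with 0.35, 0.43 and 0.42. Setdb1, the histone methyltransferase recruited to imprints by ZFP57 and TRIM28, and Smchd1, a chromatin protein of imprinted clusters and the inactive X, were 0.36 to 0.40 and 0.29 to 0.38 higher. In the opposite direction, Zfp57 was lower in LiPS-57 (-0.26, adjusted p = 0.0128) and LiPS-47 (-0.31, adjusted p = 0.00372), as was Dnmt3l, the cofactor of the de novo enzymes (-0.30 and -0.22).

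Of 29 further imprinted genes, 3 were higher and 8 lower in LiPS-45 than in LiPS-50, 4 higher and 7 lower in LiPS-57, and 2 higher and 9 lower in LiPS-47, and 0 were called among the other lines. This is 37.9% of the list in each comparison, beside 16.5%, 15.6% and 15.8% of all probe sets. Most of the list lies above the 40th percentile, where 24.5%, 23.4% and 23.5% of all probe sets were called. The median differences of the list were -0.12, -0.14 and -0.11. Ascl2, a trophoblast transcription factor of the Kcnq1ot1 cluster, had the largest differences, with -1.40, -1.27 and -1.26, and means of 5.86 ± 0.0498 in LiPS-45 cultures, 6.00 ± 0.107 in LiPS-57 cultures, 6.00 ± 0.175 in LiPS-47 cultures and 7.27 ± 0.248 in LiPS-50 cultures (SD, n = 3 each). Dcn, a matrix proteoglycan abundant in fibroblasts, followed with -0.95, -0.86 and -1.17. Atp10a, a phospholipid flippase gene, was higher by 0.41, 0.39 and 0.44. In the Dlk1-Dio3 domain, the paternally read Dlk1 differed from LiPS-50 by -0.79, -0.73 and -0.97. The maternally read Meg3 set LiPS-57 apart from every other line, as did Rian, with no overlap of cultures. Meg3 averaged 9.60 ± 0.0568 in LiPS-57 cultures (SD, n = 3 each). LiPS-45 cultures averaged 10.70 ± 0.0798, LiPS-50 cultures 10.32 ± 0.118 and LiPS-47 cultures 10.35 ± 0.106. For Rian the mean was 5.93 ± 0.259 in LiPS-57 cultures, and means elsewhere ran from 6.76 to 7.23. LiPS-57 was called lower at 2 of the 3 measured genes there against LiPS-45, at 2 against LiPS-47 and at 3 against LiPS-50.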

How the data were processed

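Per the labels' protocols, RNA of 12 cultures was amplified over whole transcripts and hybridised to 12 arrays as biotin-labelled cDNA. The authors deposited 1 intensity per probe set and array, linear and already at a common level across arrays, and the submitters' processing notes name GCOS 1.4. How values were summarised, background-corrected and normalized is not given in the sources used here. Each value became log2(intensity + 1), which understates changes of dim genes. Of 35556 probe sets, 6617 whose identifiers precede the annotated range were left out as a presumed control block, a choice taken over from earlier processing of these data, which leaves 28939. Gene names come from the platform annotation, with current symbols from RefSeq by gene identifier, and a probe set listing several genes names none.

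Line means were fitted with lmFit and eBayes of limma 3.58.1 (R 4.3.3), with two-sided p-values adjusted by Benjamini-Hochberg over all tested probe sets and a threshold of 0.05. Residual degrees of freedom were 8, and the prior added 4.06. For competence the line entered as a random block (consensus correlation 0.183). No pair of arrays shared over 0.607% of identical values. The fit was tested on simulated data. All measured members may be named, with each culture's value for most that passed a test, and for competence the 5 members with the smallest p. Members, gene lists and tests were chosen with earlier results of these data known. Promoter windows come from RefSeq, build GRCm38.p6.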

Additional observations from a re-analysis of the deposited data

How the results depend on the processing

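With the fibroblast and feeder marker mean as a covariate, members called fell to 1 across the 4 lines, 1 for LiPS-45 against LiPS-50, 1 for LiPS-57 against LiPS-50 and 1 for LiPS-47 against LiPS-50. The difference of Igf2 turned to 0.047 for LiPS-45 minus LiPS-50, 0.17 for LiPS-57 minus LiPS-50 and 0.15 for LiPS-47 minus LiPS-50, and that of Igf2r to 0.0021 for LiPS-45 minus LiPS-50 and 0.037 for LiPS-47 minus LiPS-50. No other alternative turned the direction of a called difference. For LiPS-45 against LiPS-57 the count was 0 with the replicate block, with the control block included (an alternative added after seeing the data) and with the 2 lines fitted alone, and 2 with quantile normalization, with dim probe sets left out and with a pseudocount of 16. For LiPS-57 against LiPS-47 it was 1 with dim probe sets left out. For competence it was 5 with the spread between cultures as error. Leaving out each replicate in turn gave 12 to 15 members across the 4 lines, 12 to 15 for LiPS-45 against LiPS-50, 9 to 13 for LiPS-57 against LiPS-50, 13 to 16 for LiPS-47 against LiPS-50, 0 to 1 for LiPS-45 against LiPS-57, 0 to 1 for LiPS-57 against LiPS-47 (1 without LiPS-45 replicate 2) and 0 for LiPS-45 against LiPS-47 and for competence.

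Arrays of different lines with the same replicate number deviated together no more than others did. Correlations of their deviations from the line mean lay between -0.17 and 0.12 (median 0.012), against -0.18 to 0.20 (median 0.0052) for other numbers. For 4 of 12 arrays the mean correlation was highest with their own number. This check gave no sign that the numbers pair the samples, though a weak pairing could go unseen. The replicate block gave 14 members across the 4 lines, 14 for LiPS-45 against LiPS-50, 13 for LiPS-57 against LiPS-50 and 15 for LiPS-47 against LiPS-50. Of 45 called differences of members, 42 stayed called with the replicate block, 41 with median centring, 42 with quantile normalization, 45 with a pseudocount of 16, 40 with the control block included and 39 with the 2 lines fitted alone. Median centring ended the calls against LiPS-50 of Airn and Zim1 in LiPS-57, Peg10 in LiPS-45 and Mcts2 in LiPS-47 (adjusted p between 0.0623 and 0.120). Quantile normalization ended those of Airn and Zim1 in LiPS-57 and Grb10 in LiPS-45 (0.0745 to 0.119). The replicate block ended those of Grb10 in LiPS-45 and Mcts2 in LiPS-47, and the Nnat call between LiPS-45 and LiPS-57 (0.0605 to 0.0856). Members near or below the 40th percentile of all probe sets, such as Calcr and Zim1, are dim, and that a member was not called there does not show equal levels.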
